A study of Mus musculus with 16 samples.

Results

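Leukocytes of the spleen were compared after activation of catecholaminergic neurons of the ventrolateral medulla (VLM), a brainstem region, and after a control treatment of the same neurons. The comparison set the 4 spleen libraries of DbhVLM-hM3Dq mice (replicates 5 to 8) against the 4 spleen libraries of DbhVLM-mCherry mice (replicates 1 to 4), which are 8 of the 16 libraries of the series. All mice were C57BL/6J of 12 weeks that carried Dbh-Cre, which places Cre recombinase in cells that express dopamine beta-hydroxylase. The hM3Dq group received AAV-DIO-hM3Dq-mCherry on both sides of the VLM, and the mCherry group received the same volume of AAV-DIO-mCherry. Both groups were then given clozapine N-oxide (CNO), so effects of CNO itself are shared by the groups. Cells positive for CD45, the common leukocyte antigen, were taken 4 hours after CNO, and their poly(A) RNA was sequenced. The other 8 libraries are CD45+ cells of bone marrow of the same groups.

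The hM3Dq protein is a muscarinic receptor altered to respond to CNO and to excite the neuron that carries it, and mCherry is a fluorescent protein with no such effect. Cre switches the viral gene on in brain neurons, and the gene's transcript could therefore not serve as a check in spleen cells. Catecholaminergic neurons of the VLM drive sympathetic outflow and, through projections to the hypothalamus, the release of stress hormones. The spleen is innervated by sympathetic fibres, and its B cells, T cells, NK cells and phagocytes carry receptors for noradrenaline and for glucocorticoids. Glucocorticoids are known to induce a common set of genes in leukocytes, to restrain inflammatory and interferon signalling, and to promote the death or redistribution of lymphocytes.

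Assigned fragments per library numbered 11345000 to 16364000 in hM3Dq spleens and 13153000 to 16963000 in mCherry spleens, to the nearest 1000. The leukocyte identity of the cells was checked against marker genes. Ptprc, which encodes CD45, stood at 73.7 ± 7.46 FPKM in hM3Dq spleens and 91.2 ± 2.94 FPKM in mCherry spleens. It was called lower (log2 change -0.33 ± 0.07, adjusted p = 0.0291), and that call ended without hM3Dq replicates 7 and 8 and mCherry replicates 1, 2, 3 and 4 (adjusted p up to 0.0904). Cd79a of B cells and Cd3e of T cells stood at 364 and 44.01 FPKM in hM3Dq spleens and 416 and 47.2 FPKM in mCherry spleens. Some defining genes of other tissues were near 0 in hM3Dq and mCherry means. Col1a1 of stroma stood at 0.0448 and 0.0588 FPKM, Cpb1 of exocrine pancreas at 0.0544 and 0.0332 FPKM, and Lum at 0 in both. Other members of these lists were detected. Summed over the list, stroma and endothelium genes stood at 35.6 to 43.9 FPKM in hM3Dq spleens and 27.8 to 35.05 FPKM in mCherry spleens. Exocrine pancreas genes stood at 10.9 to 13.6 FPKM in hM3Dq spleens and 9.2 to 11.3 FPKM in mCherry spleens. Red cell RNA remained, with haemoglobin genes taking 0.133% to 1.33% of fragments in hM3Dq spleens and 0.568% to 1.68% in mCherry spleens. The lowest share belonged to hM3Dq replicate 6, which also lay farthest from the rest on the first principal component, at -56.9 where the others lay between -18.2 and 33.6. Counts of list members are given with the range found when each of the 8 libraries in turn, that one included, was left out. The design text calls the replicates biological, but the labels tie no library to a mouse, so p-values measure the spread between these libraries.

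Of 17076 genes tested in spleen, limma called 1390 at an adjusted p below 0.05 (8.14%), 636 higher (3.72%) and 754 lower (4.42%) in hM3Dq spleens. The change was at least 2-fold for 132 of the higher and 90 of the lower genes, and at least 4-fold for 12 and 7. Of the 1390 genes, 691 changed by less than 1.5-fold. In 1357 of them the libraries of the groups did not overlap in FPKM. Over all 17076 genes tested, called or not, the hM3Dq libraries lay above all mCherry libraries in 1596 and below them in 1524. A lack of overlap is thus common and adds little to a call. The genes named below for their smallest p were chosen among called genes without overlap, so their separation was set by that choice. Below, rose and fell are used of called genes only. FPKM are fragment counts scaled to transcript length and library depth, group means carry the SD over 4 libraries, and log2 changes, hM3Dq minus mCherry on the log2(FPKM + 0.1) scale, carry limma's standard error. The added 0.1 understates the changes of genes with few fragments. With 1 library left out the number called was 1756, 872, 715 and 382 for hM3Dq replicates 5 to 8 and 469, 756, 639 and 565 for mCherry replicates 1 to 4. Where a call is said below to end without certain libraries, each of them alone ended it when left out.

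**Figure D1:**
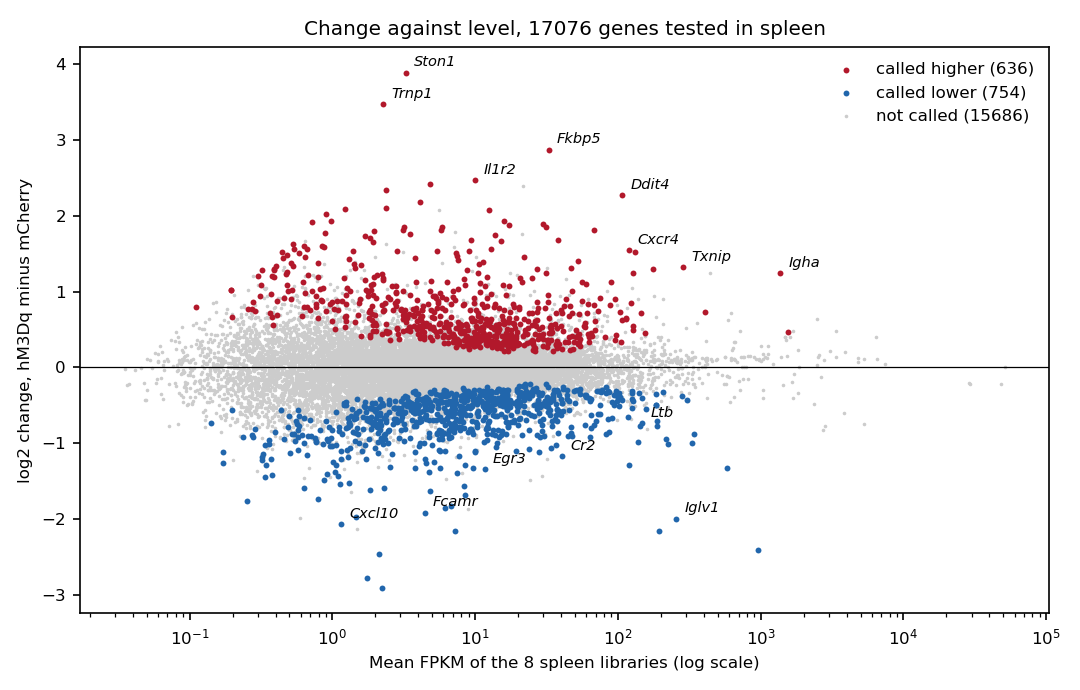
Each point is 1 of 17076 genes, with the mean FPKM of the 8 spleen libraries on a log axis and the log2 change, hM3Dq minus mCherry, on the vertical axis. The 636 genes called higher are red, the 754 called lower are blue and the rest are grey; Ston1, Trnp1 and Fkbp5 reach the highest called values, and most called genes lie within 1 log2 unit of 0.

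The genes with the strongest evidence of an increase included hormone-feedback, trafficking and growth-restraint genes. Fkbp5, a co-chaperone that dampens the glucocorticoid receptor (ENSMUSG00000024222, chr17:28399094-28517527, minus strand, GRCm38), had 48.4, 60.1, 58.95 and 63.1 FPKM in hM3Dq spleens, against 7.52, 7.59, 8.301 and 7.22 FPKM in mCherry spleens. All 4 hM3Dq libraries lay far above all 4 mCherry libraries (log2 change 2.87 ± 0.10, adjusted p = 7.33e-06). Cxcr4, the receptor by which leukocytes follow CXCL12 (chr1:128588199-128592293, minus strand), had 164, 209, 168 and 177 FPKM in hM3Dq spleens, against 55.9, 64.4, 53.02 and 69.4 FPKM in mCherry spleens. Its groups did not overlap either, and the fold was 2.92 (log2 change 1.55 ± 0.10, adjusted p = 0.000331). Trnp1, a nuclear protein best known from brain development, had 3.72, 4.42, 3.83 and 5.099 FPKM in hM3Dq spleens, against 0.225, 0.333, 0.321 and 0.276 FPKM in mCherry spleens, so that a gene near the detection floor in mCherry spleens was measured in every hM3Dq spleen (log2 change 3.47 ± 0.15, adjusted p = 4.05e-05).

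A pair of neighbouring genes on chromosome 17 rose together. Ppp1r21, a protein of early endosomes (chr17:88530118-88588367, plus strand), had 26.5, 38.7, 31.6 and 32.2 FPKM in hM3Dq spleens, against 10.7, 10.8, 12.4 and 11.9 FPKM in mCherry spleens. Ston1, an endocytic adaptor of the stonin family, begins 9316 bases beyond the end of Ppp1r21 on the same strand (chr17:88597684-88662586, plus strand) and had 3.96, 7.82, 5.42 and 7.77 FPKM in hM3Dq spleens, against 0.313, 0.379, 0.365 and 0.202 FPKM in mCherry spleens. The log2 changes were 1.46 ± 0.10 and 3.89 ± 0.25, and neither pair of groups overlapped (adjusted p = 0.000711 and 0.000331). Among the other genes of smallest p, Sytl3, which tethers secretory vesicles to Rab27, averaged 9.02 FPKM in hM3Dq and 2.45 FPKM in mCherry spleens, and Lifr, a receptor subunit for leukaemia inhibitory factor, 4.904 FPKM in hM3Dq and 1.31 FPKM in mCherry spleens (log2 changes 1.82 and 1.81). Of the genes chosen for the size of their change, Sult1a1, a sulfotransferase, rose 4.52-fold and Crispld2, a secreted lipopolysaccharide-binding protein, 3.62-fold.

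The genes with the strongest evidence of a decrease included inflammatory and lymphocyte genes. Nfkbie, which encodes the NF-kB inhibitor IkB epsilon (chr17:45555703-45563169, plus strand), had 16.1, 16.8, 15.8 and 15.2 FPKM in hM3Dq spleens, against 25.1, 25.3, 24.1 and 26.2 FPKM in mCherry spleens. The spread within each group was small, and the groups were clearly apart (log2 change -0.67 ± 0.05, adjusted p = 0.000891). Fcamr, a receptor for IgM and IgA on B cells, had 2.17, 1.75, 1.76 and 1.41 FPKM in hM3Dq spleens, against 7.597, 7.18, 4.196 and 9.31 FPKM in mCherry spleens, a change of -1.91 ± 0.23 (adjusted p = 0.005). Ltb, the lymphotoxin beta that lymphocytes use to organise lymphoid tissue, averaged 112 ± 7.32 FPKM in hM3Dq spleens and 184 ± 15.2 FPKM in mCherry spleens (log2 change -0.73 ± 0.09, adjusted p = 0.005). Others were Kynu, an enzyme of tryptophan breakdown (-1.14), Slc9a7, a sodium-proton exchanger (-0.81), the heparanase gene Hpse (-0.84), Egr3 (-1.34), L3mbtl3 (-0.57) and Lynx1 (-0.92), with adjusted p from 0.000891 for Nfkbie to 0.005 for Ltb over these genes. The genes of largest decrease with a mean of at least 5 FPKM in 1 group also held Apol7c, an apolipoprotein L of dendritic cells, with 4.96, 2.29, 5.44 and 3.92 FPKM in hM3Dq spleens, against 13.7, 11.5, 14.05 and 12.1 FPKM in mCherry spleens, and Art2b, an ADP-ribosyltransferase on the surface of T cells, with 5.95, 3.34, 4.76 and 2.94 FPKM in hM3Dq spleens, against 12.95, 16.7, 10.3 and 9.79 FPKM in mCherry spleens. In both genes the hM3Dq libraries lay below all mCherry libraries (log2 change -1.69 ± 0.26, adjusted p = 0.0104 for Apol7c and log2 change -1.57 ± 0.25, adjusted p = 0.0119 for Art2b). The potassium channel gene Kcnj10 averaged 2.35 ± 0.851 FPKM in hM3Dq spleens and 7.24 ± 1.91 FPKM in mCherry spleens (log2 change -1.63 ± 0.25, adjusted p = 0.0107), and the interleukin-9 receptor gene Il9r 5.66 ± 2.14 FPKM in hM3Dq spleens and 13.7 ± 3.56 FPKM in mCherry spleens, and the call of Il9r ended without hM3Dq replicate 6 and mCherry replicates 1, 2, 3 and 4 (adjusted p up to 0.0799).

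**Figure D2:**
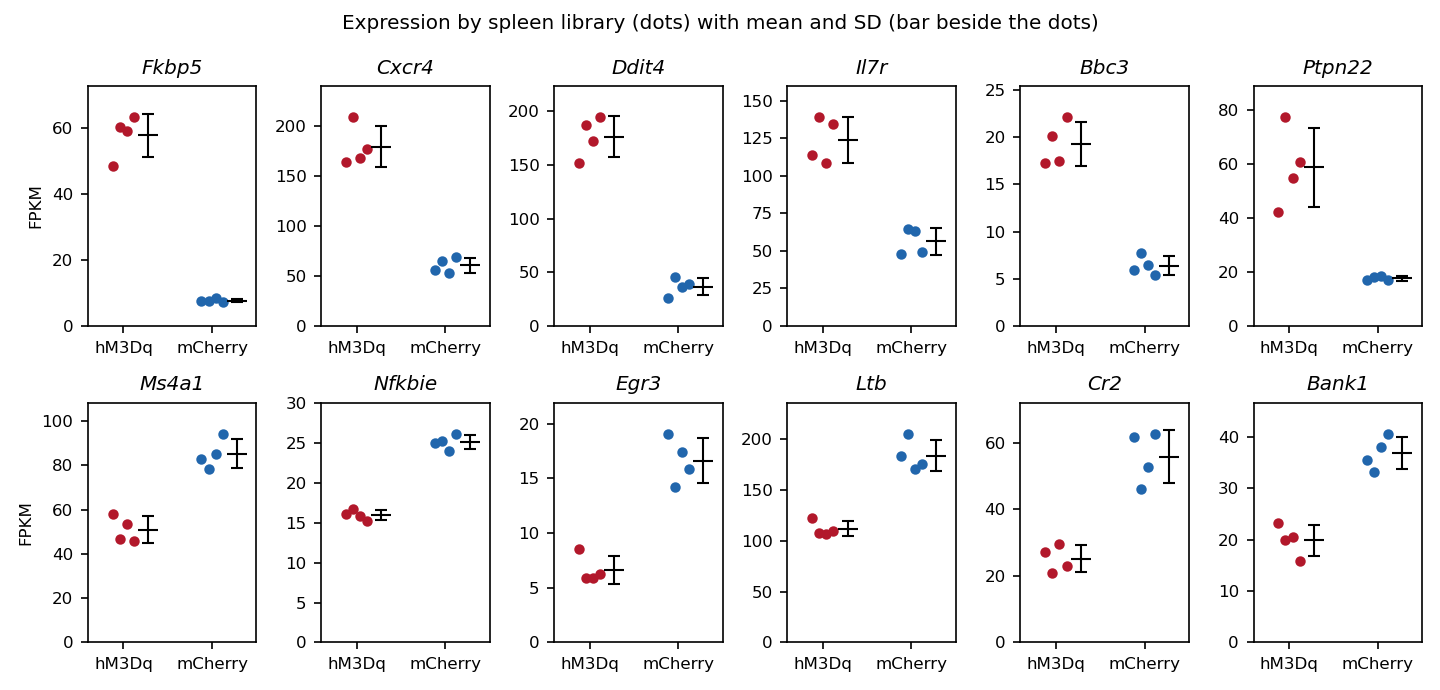
Deposited FPKM (vertical axes, from 0) of 12 genes in each of the 4 hM3Dq and 4 mCherry spleen libraries, with dots for libraries and a bar for mean and SD. Genes of the upper row are higher and genes of the lower row are lower in hM3Dq spleens. In none of the 12 do the groups overlap, as in 1357 of all 1390 called genes.

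Genes that glucocorticoids are known to induce were mostly higher. Of 32 measured members of that list 17 rose and 1 fell, with a median log2 change of 0.73 beside -0.0071 over all genes tested (16 to 18 rose and 0 to 1 fell with 1 library left out). The lower member was Arl4d, a small GTPase named here after its values were seen (4.97 FPKM in hM3Dq and 6.74 FPKM in mCherry spleens), whose call ended without hM3Dq replicates 6, 7 and 8 and mCherry replicates 1, 2, 3 and 4 (adjusted p up to 0.116). Tsc22d3, the glucocorticoid-induced leucine zipper that restrains NF-kB and AP-1, had 92.5, 124, 97.8 and 110.5 FPKM in hM3Dq spleens, against 21.4, 31.9, 30.5 and 36.4 FPKM in mCherry spleens. Dusp1, a phosphatase that shuts off MAP kinases, had 18.4, 41.1, 21.5 and 29.6 FPKM in hM3Dq spleens, against 6.85, 6.72, 7.02 and 7.47 FPKM in mCherry spleens. No mCherry library reached the lowest hM3Dq library for either gene (log2 change 1.82 ± 0.16, adjusted p = 0.00146 for Tsc22d3 and log2 change 1.88 ± 0.21, adjusted p = 0.00435 for Dusp1). Il1r2, the decoy receptor that binds interleukin-1 without signalling, rose 5.55-fold (log2 change 2.47 ± 0.24, adjusted p = 0.00256). Of 14 interleukin-1 family genes 2 rose, Il1r2 and the receptor subunit gene Il1rap, and 0 fell, and the call of Il1rap ended without hM3Dq replicates 6 and 8 and mCherry replicates 1, 2, 3 and 4 (adjusted p up to 0.0933). Il7r, the interleukin-7 receptor of T cells and their precursors, averaged 124 ± 15.1 FPKM in hM3Dq spleens and 56.3 ± 9.09 FPKM in mCherry spleens (log2 change 1.12 ± 0.13, adjusted p = 0.005). The receptor gene itself, Nr3c1, was not called (19.1 ± 2.04 FPKM in hM3Dq spleens and 19.6 ± 1.38 FPKM in mCherry spleens, adjusted p = 0.681).

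Brakes on growth signalling were among the higher genes. Of 20 measured brakes on growth factor and mTORC1 signalling 7 rose and 0 fell (median 0.25), and 4 to 7 rose with 1 library left out. The 4 of smallest p, Pik3ip1, Ddit4, Sesn1 and Txnip, are also members of the glucocorticoid-induced list, so the lists are not separate evidence. Pik3ip1, a membrane protein that inhibits PI3-kinase, had 41.5, 57.6, 46.4 and 50.9 FPKM in hM3Dq spleens, against 11.4, 14.2, 14.5 and 13.03 FPKM in mCherry spleens. Ddit4, which inhibits mTORC1, had 152, 188, 173 and 195 FPKM in hM3Dq spleens, against 26.1, 45.4, 36.3 and 38.8 FPKM in mCherry spleens. Sesn1, a leucine sensor upstream of mTORC1, averaged 77.2 ± 15.5 FPKM in hM3Dq spleens and 28.4 ± 1.75 FPKM in mCherry spleens, and Txnip, which limits glucose uptake, 409 ± 77.04 FPKM in hM3Dq spleens and 161 ± 28.3 FPKM in mCherry spleens. These 4 genes showed no overlap between groups, with log2 changes of 1.86, 2.27, 1.40 and 1.33 (adjusted p from 0.000331 to 0.00532). Pdcd4, an inhibitor of translation initiation, had 156, 209, 172 and 179.7 FPKM in hM3Dq spleens, against 63.03, 75.8, 80.4 and 77.3 FPKM in mCherry spleens (log2 change 1.25 ± 0.10, adjusted p = 0.00121). Of 20 lymphocyte quiescence factors 1, Pdcd4, rose and 0 fell. Klf2 and Tcf7 of that list stood at 134 and 133 FPKM in hM3Dq spleens and 150.2 and 147 FPKM in mCherry spleens, with adjusted p of 0.35 and 0.539.

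Machinery downstream of growth signalling showed few single-gene calls. None of 34 cytosolic ribosomal protein and elongation factor genes was called (median 0.11), nor any of 20 genes of glycolysis and glucose uptake (median 0.03), 29 nuclear genes of the respiratory chain (-0.07) or 13 mitochondrially encoded genes (0.23). At an unadjusted p below 0.05 limma gave 0 ribosomal genes, 4 higher and 1 lower glycolysis genes, 0 higher and 2 lower respiratory chain genes, and 6 higher and 0 lower mitochondrially encoded genes. Voom on recovered reads called 4 of the mitochondrially encoded genes and 1 glycolysis gene higher and no other gene of these lists. Of 29 DNA replication and mitosis genes 1, the origin licensing gene Cdt1, rose, a call that ended without hM3Dq replicates 7 and 8 and mCherry replicates 1, 2, 3 and 4 (adjusted p up to 0.0751), and 0 fell. Their median was -0.27, and it was -0.05 without hM3Dq replicate 6 and -0.0711 with the haemoglobin share as a covariate. Mki67, a marker of cycling cells, varied widely within groups, at 56.7, 14.5, 44.8 and 42.6 FPKM in hM3Dq spleens, against 76.7, 22.9, 47.8 and 55.7 FPKM in mCherry spleens (adjusted p = 0.627). The D cyclins, which start the cell cycle, split. Ccnd3 averaged 26.1 ± 0.322 FPKM in hM3Dq spleens and 18.8 ± 1.18 FPKM in mCherry spleens (log2 change 0.45 ± 0.06, adjusted p = 0.00782), while Ccnd1 averaged 2.41 ± 0.683 FPKM in hM3Dq spleens and 5.16 ± 0.253 FPKM in mCherry spleens (log2 change -1.12 ± 0.18, adjusted p = 0.0117).

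In the BCL2 family, which sets the threshold for mitochondrial cell death, several members with only a BH3 domain rose. These proteins free the death effectors by blocking BCL2-like survival proteins. Of 17 measured family members 4 rose and 1 fell (median -0.02), and 3 to 4 rose and 0 to 3 fell with 1 library left out. The change was positive in 8 of the 17. Bbc3, which encodes PUMA (chr7:16308393-16318205, plus strand), had 17.3, 20.2, 17.5 and 22.1 FPKM in hM3Dq spleens, against 5.96, 7.79, 6.41 and 5.405 FPKM in mCherry spleens. Bcl2l11, which encodes BIM, had 11.3, 20.96, 14.2 and 18.3 FPKM in hM3Dq spleens, against 7.22, 7.46, 7.61 and 7.102 FPKM in mCherry spleens. Every hM3Dq library exceeded every mCherry library for both (log2 change 1.56 ± 0.13, adjusted p = 0.00145 for Bbc3 and log2 change 1.07 ± 0.16, adjusted p = 0.00993 for Bcl2l11). Bmf, another BH3-only gene, named after its values were seen, had 9.23, 19.3, 13.4 and 17.96 FPKM in hM3Dq spleens, against 5.16, 5.83, 7.65 and 7.801 FPKM in mCherry spleens. The call of Bmf ended without hM3Dq replicates 6, 7 and 8 and mCherry replicates 1, 2 and 4 (adjusted p up to 0.0757). The survival gene Bcl2 was higher too, at 20.7 ± 1.55 FPKM in hM3Dq spleens and 13.5 ± 1.103 FPKM in mCherry spleens (log2 change 0.60 ± 0.07, adjusted p = 0.00512), whereas the survival gene Bcl2a1a, a member of a group of near-identical copies whose reads may be split between them, averaged 8.63 ± 1.42 FPKM in hM3Dq spleens and 15.7 ± 3.14 FPKM in mCherry spleens. The call of Bcl2a1a ended without hM3Dq replicate 8 and mCherry replicates 1 and 4 (adjusted p up to 0.0614). The survival gene Mcl1 was not called (164 FPKM in hM3Dq and 184 FPKM in mCherry spleens, adjusted p = 0.12). Among 18 p53 targets 3 rose, namely Bbc3, Sesn1 and Trp53inp1 (59.4 ± 11.4 FPKM in hM3Dq spleens and 33.4 ± 5.25 FPKM in mCherry spleens, adjusted p = 0.0154), while Mdm2, the feedback inhibitor of p53, stood at 14.1 FPKM in hM3Dq and 12.8 FPKM in mCherry spleens (adjusted p = 0.336). The change was positive in 6 of the 18 (median -0.05). Bbc3 and Sesn1 are also members of lists given above, so these lists are not separate evidence.

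Many interferon-response genes were lower, and the type I interferon list had the highest share of lower members among the lists plotted. Type I interferons induce genes of antiviral defence, and interferon gamma induces GTPases that attack intracellular microbes. Of 40 measured type I interferon genes 26 fell and 0 rose (median -0.60), and 6 to 26 fell with 1 library left out, the fewest without hM3Dq replicate 8. Of 28 interferon gamma targets 13 fell and 0 rose (median -0.42), and 1 to 13 fell with 1 library left out, the fewest without hM3Dq replicate 8 or mCherry replicate 1.

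**Figure D3:**
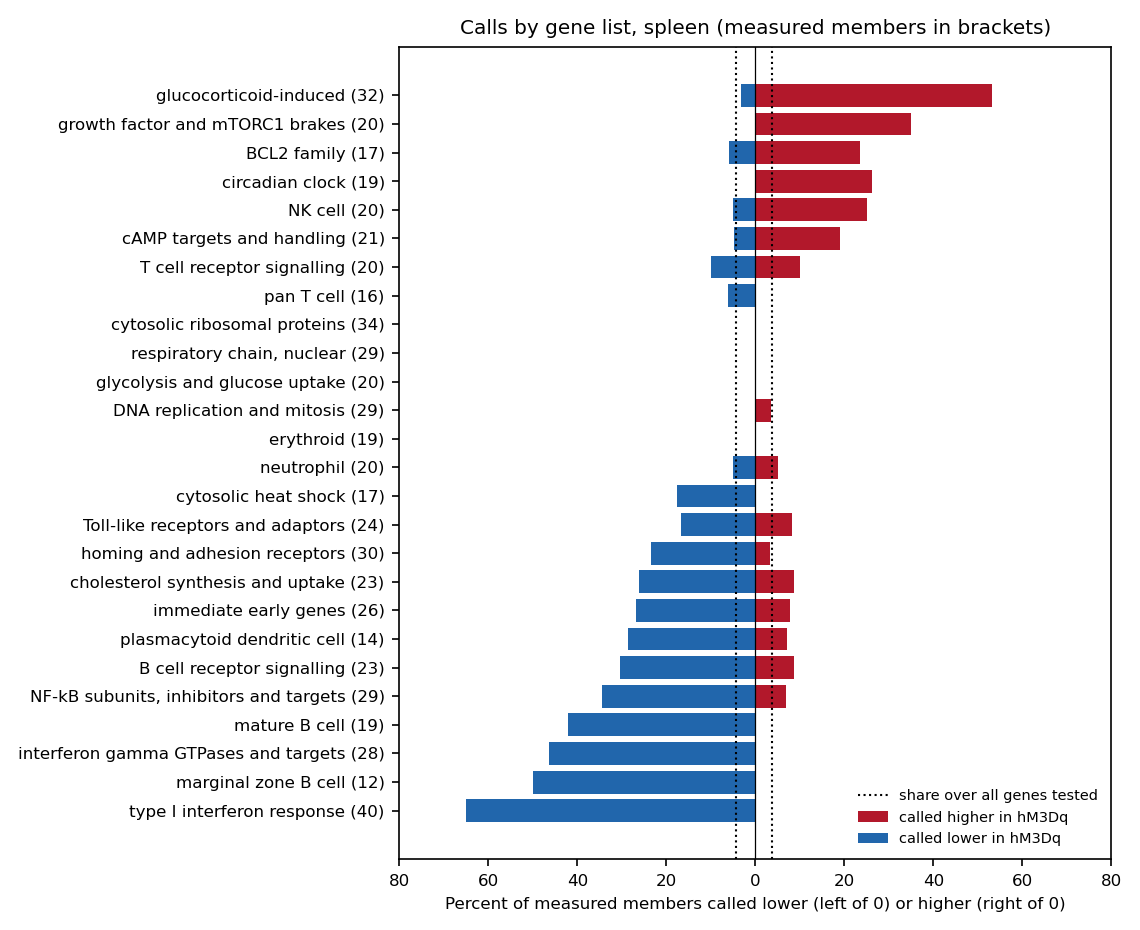
Bars give the percent of each list's measured members that limma called lower (blue, left) or higher (red, right) in hM3Dq spleens, and the dotted lines give the same share over all genes tested, 4.42% and 3.72%. The type I interferon, marginal zone B cell and interferon gamma lists reach farthest to the left and the glucocorticoid-induced list farthest to the right.

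The promoters of some of these genes carry the letters of the interferon-stimulated response element, the site that STAT and IRF factors bind. The windows of 250 bases before to 50 bases after the start of transcription, from RefSeq (GRCm38.p6), are shown for Ifit1 (chr19:34640639-34640938, plus strand), Ifit3b (chr19:34607707-34608006, plus strand), Gbp2 (chr3:142620413-142620712, plus strand) and Irgm2 (chr11:58214727-58215026, plus strand), as examples of antiviral genes and interferon gamma GTPases that were lower. They read 5′ to 3′ along the gene, and capitals mark every match to GAAANNGAA or its reverse complement, which overlap in Ifit1.

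Ifit1: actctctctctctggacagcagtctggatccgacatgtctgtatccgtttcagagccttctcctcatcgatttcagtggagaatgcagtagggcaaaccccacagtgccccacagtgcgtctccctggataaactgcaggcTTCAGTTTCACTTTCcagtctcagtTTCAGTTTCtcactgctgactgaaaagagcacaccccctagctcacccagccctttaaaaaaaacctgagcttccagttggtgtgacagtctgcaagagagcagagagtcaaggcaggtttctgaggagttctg

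Ifit3b: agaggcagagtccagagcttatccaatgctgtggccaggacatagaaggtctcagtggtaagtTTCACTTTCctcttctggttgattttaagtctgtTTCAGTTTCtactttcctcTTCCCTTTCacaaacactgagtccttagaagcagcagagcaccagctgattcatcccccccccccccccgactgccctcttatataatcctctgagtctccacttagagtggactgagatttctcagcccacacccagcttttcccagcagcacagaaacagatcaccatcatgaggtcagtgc

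Gbp2: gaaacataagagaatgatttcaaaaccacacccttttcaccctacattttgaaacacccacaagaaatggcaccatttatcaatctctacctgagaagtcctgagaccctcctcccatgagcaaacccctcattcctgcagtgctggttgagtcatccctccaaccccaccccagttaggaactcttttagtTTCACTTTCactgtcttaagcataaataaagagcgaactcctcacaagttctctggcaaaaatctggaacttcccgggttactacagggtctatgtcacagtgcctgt

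Irgm2: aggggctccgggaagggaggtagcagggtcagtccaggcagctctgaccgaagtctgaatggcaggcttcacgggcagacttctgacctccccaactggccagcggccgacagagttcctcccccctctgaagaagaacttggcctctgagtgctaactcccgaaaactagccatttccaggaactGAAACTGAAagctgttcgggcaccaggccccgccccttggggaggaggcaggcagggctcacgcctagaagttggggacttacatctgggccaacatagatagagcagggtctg

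The 3 matches in Ifit1 begin 109, 103 and 84 bases before the start, the 3 in Ifit3b 187, 153 and 134 bases before it, and those in Gbp2 and Irgm2 58 and 64 bases before it. Among 8532 tested genes with 1 window each, 661 (7.7%) held the letters on either strand. They were in 19 of 344 genes called higher (5.5%), in 63 of 402 genes called lower (15.7%), and in 45 of 377 genes called lower outside both interferon lists (11.9%). In the type I interferon list 16 of 24 windows held them (66.7%), and among its members called lower 8 of 14 did (57.1%). A match describes the sequence and is not evidence of binding in these cells.

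Ifit1, an antiviral RNA-binding protein chosen here after its values were seen, had 4.89, 3.58, 2.98 and 4.12 FPKM in hM3Dq spleens, against 10.2, 5.79, 7.64 and 10.2 FPKM in mCherry spleens. The call of Ifit1 ended without hM3Dq replicate 8 and mCherry replicates 1 and 4 (adjusted p up to 0.0574). Ifit3b, a near-identical copy of Ifit3 whose reads may be split between the copies, averaged 3.62 ± 0.757 FPKM in hM3Dq spleens and 7.7 ± 0.901 FPKM in mCherry spleens (log2 change -1.10 ± 0.14, adjusted p = 0.0065), and its call ended in a fit of all 16 libraries, spleen and marrow (adjusted p = 0.0772). Usp18, a negative regulator of the interferon receptor, had 4.71, 4.36, 4.97 and 3.83 FPKM in hM3Dq spleens, against 8.46, 6.81, 8.01 and 11.1 FPKM in mCherry spleens (log2 change -0.93 ± 0.14, adjusted p = 0.0104). For Usp18 the highest hM3Dq library lay below the lowest mCherry library. Parp9 averaged 12.6 ± 1.22 FPKM in hM3Dq spleens and 17.4 ± 1.13 FPKM in mCherry spleens (log2 change -0.49 ± 0.07, adjusted p = 0.0089). The GTPase genes Gbp2 and Irgm2 averaged 12.6 and 12.6 FPKM in hM3Dq spleens and 21.2 and 20.2 FPKM in mCherry spleens; the call of Gbp2 ended without mCherry replicate 1 (adjusted p up to 0.0529) and that of Irgm2 without hM3Dq replicate 8 and mCherry replicate 1 (adjusted p up to 0.0575). Cxcl10, a chemokine that draws activated T cells and NK cells, had 0.341, 0.274, 0.382 and 0.298 FPKM in hM3Dq spleens, against 4.23, 1.31, 1.34 and 0.979 FPKM in mCherry spleens. The highest mCherry value was that of replicate 1, and the call ended without hM3Dq replicate 8 (adjusted p up to 0.0595). Trim25 and Gbp9, a ubiquitin ligase and a GTPase of these lists, had higher means in hM3Dq spleens without a call, at 41.9 and 48.7 FPKM, against 27.1 and 36.9 FPKM in mCherry spleens (adjusted p = 0.149 and 0.318).

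**Figure D4:**
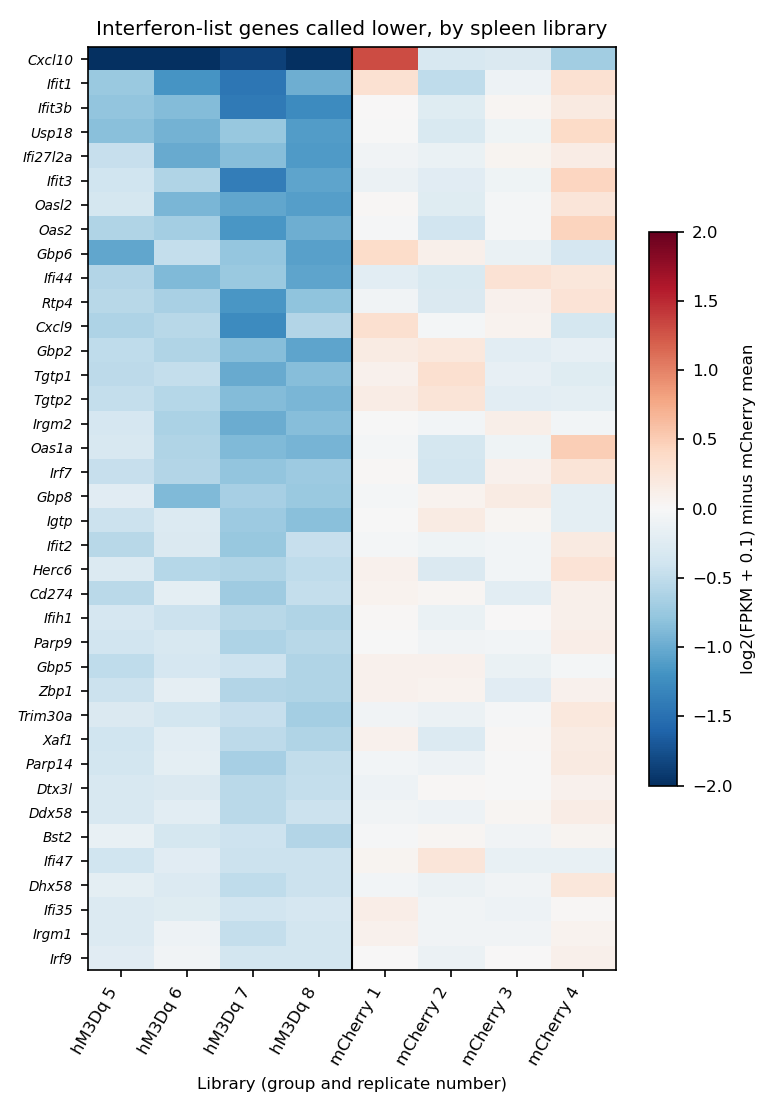
Rows are 38 genes of the type I interferon and interferon gamma lists called lower, chosen for that call, and columns are the 8 spleen libraries, with colour for log2(FPKM + 0.1) minus the mean of the mCherry libraries. All 152 values of the hM3Dq libraries lie below the mCherry mean, and mCherry replicate 1 is high for Cxcl10.

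Signal carriers for interferon and cytokines moved in both directions. Jak2, a kinase of the interferon gamma receptor, averaged 39.99 ± 5.53 FPKM in hM3Dq spleens and 28.03 ± 0.473 FPKM in mCherry spleens (log2 change 0.48 ± 0.08, adjusted p = 0.0111). Tyk2, a kinase of the type I interferon receptor, averaged 10.99 ± 0.755 FPKM in hM3Dq spleens and 13.5 ± 0.393 FPKM in mCherry spleens. The call of Tyk2 ended without hM3Dq replicate 8 and mCherry replicate 4 (adjusted p up to 0.0595). In the whole list 3 of 28 JAK-STAT, IRF and SOCS genes rose and 5 fell, and 1 to 3 rose and 1 to 5 fell with 1 library left out. Of 21 cytokine receptors and ligands of the common gamma chain group 3 rose and 4 fell, and 2 to 4 rose and 2 to 4 fell with 1 library left out. Il18rap, a subunit of the interleukin-18 receptor, averaged 17.3 ± 1.78 FPKM in hM3Dq spleens and 9.76 ± 1.12 FPKM in mCherry spleens (log2 change 0.80 ± 0.11, adjusted p = 0.00707). The common gamma chain gene Il2rg averaged 85.98 ± 5.103 FPKM in hM3Dq spleens and 110.2 ± 4.75 FPKM in mCherry spleens (log2 change -0.38 ± 0.06, adjusted p = 0.0107), and Il27ra, the interleukin-27 receptor, 18.7 ± 1.98 FPKM in hM3Dq spleens and 28.1 ± 2.36 FPKM in mCherry spleens (log2 change -0.60 ± 0.09, adjusted p = 0.00782).

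Targets of NF-kB and early-response genes were also lower more often than higher. NF-kB is the main transcription factor of inflammatory and CD40 signals. Of 29 measured NF-kB subunits, inhibitors and targets 10 fell and 2 rose (median -0.26), and 0 to 2 rose and 4 to 11 fell with 1 library left out. Cd40, the receptor through which T cells license B cells and dendritic cells, had 6.48, 5.67, 7.29 and 6.06 FPKM in hM3Dq spleens, against 10.5, 10.5, 11.3 and 13.5 FPKM in mCherry spleens (log2 change -0.85 ± 0.12, adjusted p = 0.00707). Cd83, an activation marker of the same cells, averaged 23.1 ± 1.92 FPKM in hM3Dq spleens and 36.7 ± 4.69 FPKM in mCherry spleens (log2 change -0.68 ± 0.10, adjusted p = 0.0104), and the adhesion molecule gene Icam1 10.1 ± 0.975 FPKM in hM3Dq spleens and 14.5 ± 1.41 FPKM in mCherry spleens (log2 change -0.53 ± 0.09, adjusted p = 0.0134). The subunit gene Rela and the inhibitor gene Nfkbia were not called, at 38.4 and 74.5 FPKM in hM3Dq spleens and 37.6 and 61.01 FPKM in mCherry spleens (adjusted p = 0.921 and 0.0528).

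Of 26 immediate early genes 7 fell and 2 rose, and 1 to 9 fell with 1 library left out, the fewest without hM3Dq replicate 8. Egr3, an early factor of antigen receptor signals, had 8.58, 5.85, 5.92 and 6.26 FPKM in hM3Dq spleens, against 19.1, 14.2, 17.4 and 15.8 FPKM in mCherry spleens (log2 change -1.34 ± 0.15, adjusted p = 0.00435). The lowest mCherry library was well above the highest hM3Dq library. Egr1 averaged 4.997 ± 0.654 FPKM in hM3Dq spleens and 8.45 ± 1.11 FPKM in mCherry spleens. The call of Egr1 ended without hM3Dq replicate 8 (adjusted p up to 0.0518). The higher members were Dusp2, a MAP kinase phosphatase of activated lymphocytes (59.7 ± 9.15 FPKM in hM3Dq spleens and 35.4 ± 1.32 FPKM in mCherry spleens, log2 change 0.72 ± 0.10, adjusted p = 0.00707), and Cd69, an early activation antigen that keeps lymphocytes in tissue by blocking S1PR1 (8.73 ± 1.82 FPKM in hM3Dq spleens and 4.73 ± 0.622 FPKM in mCherry spleens, log2 change 0.84 ± 0.13, adjusted p = 0.0117). Some early genes also respond to cell handling. In a list of 17 handling genes 4 fell and 1, Dusp1, rose (0 to 5 fell with 1 library left out), and its summed level ran from 325 to 388 FPKM in hM3Dq spleens and from 348 to 396 FPKM in mCherry spleens.

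Many B cell genes were lower, and among the B cell lists that of the marginal zone had the largest share of lower members. Marginal zone B cells line the border of the white pulp, where they answer blood-borne antigens. Of 12 marginal zone genes 6 fell and 0 rose (median -0.47), and 0 rose and 3 to 5 fell with 1 library left out. Their summed level was 283 to 329 FPKM in hM3Dq spleens and 382 to 449 FPKM in mCherry spleens, without overlap. The sum included Plac8 and Mzb1, which averaged 84.4 and 64.8 FPKM in hM3Dq spleens and 113 and 85.1 FPKM in mCherry spleens. Mzb1 is also a member of the plasma cell list and Cr2 of the mature B cell list. The sum is therefore not specific to marginal zone B cells. In these bulk samples fewer cells of a type and less RNA per cell cannot be told apart. Cr2, the complement receptor CD21 (chr1:195136811-195176716, minus strand), had 27.02, 20.8, 29.7 and 22.99 FPKM in hM3Dq spleens, against 61.7, 45.9, 52.8 and 62.7 FPKM in mCherry spleens (log2 change -1.17 ± 0.14, adjusted p = 0.00511). S1pr3, a sphingosine phosphate receptor that is found on marginal zone B cells, had 2.43, 1.65, 2.64 and 1.81 FPKM in hM3Dq spleens, against 7.32, 5.85, 3.81 and 4.93 FPKM in mCherry spleens (log2 change -1.32 ± 0.22, adjusted p = 0.0134). Dtx1, a target of the NOTCH2 signal that forms these cells, averaged 29.04 ± 2.67 FPKM in hM3Dq spleens and 44.1 ± 2.75 FPKM in mCherry spleens (log2 change -0.62 ± 0.09, adjusted p = 0.00939). Notch2 itself was not called and stood at 25.03 FPKM in hM3Dq and 27.2 FPKM in mCherry spleens (adjusted p = 0.342).

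Genes shared by mature B cells split into lower members and members that were not called. Of 19 mature B cell genes 8 fell and 0 rose (median -0.28), and 0 rose and 3 to 8 fell with 1 library left out. Ms4a1, which encodes CD20, had 58.2, 46.8, 53.6 and 45.7 FPKM in hM3Dq spleens, against 83.1, 78.6, 85.1 and 94.3 FPKM in mCherry spleens (log2 change -0.76 ± 0.10, adjusted p = 0.0064). Bank1, a scaffold of B cell receptor signalling, had 23.3, 19.9, 20.4 and 15.9 FPKM in hM3Dq spleens, against 35.5, 33.2, 37.97 and 40.6 FPKM in mCherry spleens (log2 change -0.91 ± 0.11, adjusted p = 0.00527). Both had all hM3Dq libraries below all mCherry libraries. In contrast Cd79a and Ighd were not called, at 364 and 331 FPKM in hM3Dq spleens and 416 and 342 FPKM in mCherry spleens (adjusted p = 0.13 and 0.77). The follicular gene Fcer2a, which encodes the low-affinity IgE receptor CD23, averaged 44.5 ± 8.03 FPKM in hM3Dq spleens and 82.6 ± 12.98 FPKM in mCherry spleens. The call of Fcer2a ended without hM3Dq replicate 8 (adjusted p up to 0.0501). Fcer2a is a member of the mature B cell list too. Among 10 follicular genes 3 fell and 0 rose, and 4 had a positive change (median -0.06). With 1 library left out 0 to 3 fell, the fewest without hM3Dq replicate 8. Of 10 germinal centre genes 2 fell (1 to 2 fell with 1 library left out), among them Bcl6, the master regulator of that reaction (6.303 ± 0.755 FPKM in hM3Dq spleens and 10.3 ± 0.793 FPKM in mCherry spleens, log2 change -0.72 ± 0.11, adjusted p = 0.00992).

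Of 23 genes of B cell receptor signalling 7 fell and 2 rose (median -0.26), and 0 to 2 rose and 3 to 8 fell with 1 library left out. Rasgrp3, which links the receptor to RAS, averaged 11.1 ± 1.89 FPKM in hM3Dq spleens and 19.7 ± 1.703 FPKM in mCherry spleens (log2 change -0.84 ± 0.12, adjusted p = 0.00712). The inhibitory receptor Fcgr2b was higher, at 20.8 ± 2.64 FPKM in hM3Dq spleens and 15.1 ± 0.991 FPKM in mCherry spleens. The call of Fcgr2b ended without hM3Dq replicate 8 and mCherry replicates 1 and 3 (adjusted p up to 0.0619). Lyn was not called (70.5 FPKM in hM3Dq and 62.6 FPKM in mCherry spleens, adjusted p = 0.186).

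Among antibody transcripts, which come mainly from plasma cells, Igha was higher and lambda light chain segments were lower. Of 15 plasma cell genes 2 rose and 1 fell (median 0.25), and 1 to 2 rose and 0 to 1 fell with 1 library left out. Igha, the constant region of IgA, had 1968, 1608, 2522 and 1661 FPKM in hM3Dq spleens, against 838, 676, 932 and 762 FPKM in mCherry spleens (log2 change 1.24 ± 0.18, adjusted p = 0.00909). Every hM3Dq library held more Igha than any mCherry library. Of 7 heavy chain constant genes, a set chosen after these values were seen, 1 was called, Igha. Ighg2c varied more within groups than between them, at 219, 304, 302 and 123 FPKM in hM3Dq spleens, against 586, 759, 119 and 113 FPKM in mCherry spleens (adjusted p = 0.779). Iglv1, the variable segment of the lambda 1 light chain, had 111, 94.5, 140.2 and 58.1 FPKM in hM3Dq spleens, against 538, 582, 219.5 and 297 FPKM in mCherry spleens. The call of Iglv1 ended without hM3Dq replicate 8 and mCherry replicate 1 (adjusted p up to 0.0525). Its constant partner Iglc1, also chosen after its values were seen, had 80.1, 67.6, 83.1 and 44.4 FPKM in hM3Dq spleens, against 426, 448, 167 and 239 FPKM in mCherry spleens (log2 change -2.16 ± 0.33, adjusted p = 0.0104), with all hM3Dq libraries below all mCherry libraries. Of 11 tested lambda segments 7 were lower and 0 were higher. Of 100 tested kappa variable segments 4 were higher and 0 lower, and of 107 heavy chain variable segments 4 were higher and 0 lower, shares near the 3.72% of all genes called higher. Jchain, which joins IgA and IgM units, was not called (429.5 ± 84.99 FPKM in hM3Dq spleens and 282 ± 57.2 FPKM in mCherry spleens, adjusted p = 0.083). Segments of a family share sequence, so how the reads were split between them is uncertain.

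T cell identity genes were called about as often as all genes. Of 16 pan T cell genes 1, the adhesion gene Cd2, fell and 0 rose. The call of Cd2 ended without hM3Dq replicates 6, 7 and 8 and mCherry replicates 1, 2, 3 and 4 (adjusted p up to 0.101). Summed over the list, T cell genes stood at 1049 to 1179 FPKM in hM3Dq spleens and 969 to 1402 FPKM in mCherry spleens, and none of 6 CD8 T cell genes was called, by limma or voom, or reached an unadjusted p below 0.05. Regulators of T cell activation moved in both directions. Ptpn22, a phosphatase that restrains antigen receptor signalling, had 42.2, 77.5, 55 and 60.8 FPKM in hM3Dq spleens, against 16.9, 18.3, 18.4 and 16.97 FPKM in mCherry spleens (log2 change 1.68 ± 0.15, adjusted p = 0.00162). Btla, an inhibitory receptor of B and T cells, averaged 139.9 ± 12.6 FPKM in hM3Dq spleens and 88.7 ± 9.07 FPKM in mCherry spleens (log2 change 0.64 ± 0.09, adjusted p = 0.00833). Ctla4, the inhibitory receptor of regulatory and activated T cells, had 6.76, 22.5, 11.9 and 10.3 FPKM in hM3Dq spleens, against 4.51, 5.97, 3.795 and 4.63 FPKM in mCherry spleens, with the highest value in hM3Dq replicate 6. The call of Ctla4 ended without hM3Dq replicates 7 and 8 and mCherry replicates 1, 2, 3 and 4 (adjusted p up to 0.0982). Tbx21, which encodes the T helper 1 and NK cell factor T-bet, averaged 5.63 ± 0.755 FPKM in hM3Dq spleens and 9.94 ± 1.01 FPKM in mCherry spleens (log2 change -0.83 ± 0.13, adjusted p = 0.0106), and its call ended in the 16-library fit (adjusted p = 0.0597). Ifng, the interferon gamma gene, had 0.509, 0.657, 0.778 and 0.456 FPKM in hM3Dq spleens, against 1.36, 1.17, 0.977 and 1.51 FPKM in mCherry spleens. The call of Ifng ended without hM3Dq replicate 8 and mCherry replicates 1 and 4 (adjusted p up to 0.0613). Cd40lg, the ligand of CD40 on helper T cells, averaged 5.51 FPKM in hM3Dq and 8.49 FPKM in mCherry spleens. The call of Cd40lg ended without hM3Dq replicates 6, 7 and 8 and mCherry replicates 1, 2 and 3 (adjusted p up to 0.0978).

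Some NK cell receptor genes were higher, while the median of the NK cell list was near 0. Of 20 NK cell genes 5 rose and 1 fell, with a median of 0.01, and 2 to 5 rose with 1 library left out, the fewest without hM3Dq replicate 8 or mCherry replicate 1. Klrd1, which encodes CD94, averaged 43.98 ± 6.74 FPKM in hM3Dq spleens and 29.02 ± 0.767 FPKM in mCherry spleens (log2 change 0.57 ± 0.09, adjusted p = 0.0123), and Klrc1, its inhibitory partner NKG2A, 15.5 ± 1.54 FPKM in hM3Dq spleens and 9.92 ± 1.08 FPKM in mCherry spleens (log2 change 0.62 ± 0.11, adjusted p = 0.0135), whose call ended in the 16-library fit (adjusted p = 0.0577). The killing genes Gzma and Nkg7 were not called, at 108 and 57.5 FPKM in hM3Dq spleens and 125 and 60.9 FPKM in mCherry spleens (adjusted p = 0.335 and 0.591).

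Among the lists of myeloid and dendritic cells the plasmacytoid dendritic cell list had the highest count of lower members. Of 12 classical monocyte genes 1 rose and 2, Ccr2 and Ms4a4c, fell, and 7 had a positive change (median 0.08). With 1 library left out 0 to 2 rose and 2 fell. The summed level of that list was 383 to 635 FPKM in hM3Dq spleens and 387 to 516 FPKM in mCherry spleens. Ccr2, by which classical monocytes leave the marrow, had 10.01, 6.61, 7.46 and 7.41 FPKM in hM3Dq spleens, against 12.05, 16.1, 17.4 and 15.9 FPKM in mCherry spleens (log2 change -0.98 ± 0.16, adjusted p = 0.0127), and Ms4a4c of the same monocyte list averaged 31.7 ± 5.69 FPKM in hM3Dq spleens and 57.9 ± 4.16 FPKM in mCherry spleens (log2 change -0.90 ± 0.12, adjusted p = 0.00707). Flt3, a growth factor receptor of dendritic cells and progenitors, had 5.36, 7.54, 6.71 and 6.48 FPKM in hM3Dq spleens, against 2.98, 3.501, 2.94 and 3.14 FPKM in mCherry spleens (log2 change 1.01 ± 0.11, adjusted p = 0.00435). No other member of its lists rose. Of 16 conventional dendritic cell genes 1 fell (median -0.18), with a positive change in 4. Of 12 stem and progenitor genes 0 fell (median -0.11), with a positive change in 5. The neutrophil genes S100a8 and S100a9 varied widely and were not called (adjusted p = 0.402 and 0.491), and of 20 neutrophil genes 1, Il1r2, rose and 1, Csf3r, fell, a call that ended without hM3Dq replicates 6, 7 and 8 and mCherry replicates 1, 2, 3 and 4 (adjusted p up to 0.104). Their summed level was 2467 to 5751 FPKM in hM3Dq spleens and 1906 to 4406 FPKM in mCherry spleens. Of 18 genes of red pulp macrophages, which recycle red cell iron, 1 rose and 0 fell, and 0 to 3 rose and 0 to 1 fell with 1 library left out. The member called was the adhesion gene Vcam1 (56.5 FPKM in hM3Dq and 30.5 FPKM in mCherry spleens), whose call ended without hM3Dq replicates 5, 6, 7 and 8 and mCherry replicates 1, 2 and 4 (adjusted p up to 0.0962). Of 14 plasmacytoid dendritic cell genes 4 fell and 1 rose, and 1 to 2 rose and 1 to 4 fell with 1 library left out. Their summed level was 296 to 338 FPKM in hM3Dq spleens and 406 to 459 FPKM in mCherry spleens, without overlap. Most of that sum, and of its difference between groups, lay in Ly6d and Spib, so it is not specific to plasmacytoid dendritic cells. Spib, also a member of the mature B cell list, averaged 78.1 FPKM in hM3Dq spleens and 108 FPKM in mCherry spleens. Among the lower genes was Ly6d (144 ± 15.4 FPKM in hM3Dq spleens and 232 ± 17.7 FPKM in mCherry spleens, log2 change -0.71 ± 0.10, adjusted p = 0.00782), which B cells also express and whose call ended in a fit of all 16 libraries (adjusted p = 0.0511), while the defining gene Siglech was not called (5.22 FPKM in hM3Dq and 5.21 FPKM in mCherry spleens, adjusted p = 0.986). Of 24 Toll-like receptors and adaptors 4 fell and 2 rose, and 0 to 2 rose and 1 to 4 fell with 1 library left out. Tlr9, the receptor for unmethylated DNA, averaged 15.99 ± 1.33 FPKM in hM3Dq spleens and 23.5 ± 1.59 FPKM in mCherry spleens (log2 change -0.57 ± 0.09, adjusted p = 0.0122).

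Receptors that guide cells into and out of lymphoid tissue were called lower more often than higher. Among 30 such receptors and adhesion genes 7 fell and 1, Cxcr4, rose (median -0.25), and 1 rose and 3 to 12 fell with 1 library left out. S1pr1, the receptor by which lymphocytes exit lymphoid organs, had 65.4, 63.1, 61.6 and 62.1 FPKM in hM3Dq spleens, against 79.8, 96.3, 89.4 and 84.8 FPKM in mCherry spleens (log2 change -0.49 ± 0.08, adjusted p = 0.0114). Its groups did not overlap. Gpr183, an oxysterol receptor that positions B cells, averaged 15.1 ± 0.953 FPKM in hM3Dq spleens and 20.2 ± 0.469 FPKM in mCherry spleens. The call of Gpr183 ended without mCherry replicate 1 (adjusted p up to 0.0529). Ccr7, which guides cells within the white pulp and into lymph nodes, was not called (79.6 FPKM in hM3Dq and 74.6 FPKM in mCherry spleens, adjusted p = 0.719).

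Of 23 cholesterol genes 6 fell and 2 rose (median -0.20), and 0 to 2 rose and 3 to 8 fell with 1 library left out. Among the lower genes were the synthesis genes Hmgcs1 (7.72 ± 0.692 FPKM in hM3Dq spleens and 12.6 ± 1.51 FPKM in mCherry spleens, log2 change -0.72 ± 0.11, adjusted p = 0.0104), Idi1 (1.23 ± 0.143 FPKM in hM3Dq spleens and 2.41 ± 0.281 FPKM in mCherry spleens, log2 change -0.94 ± 0.13, adjusted p = 0.00829) and Cyp51 (4.08 ± 0.568 FPKM in hM3Dq spleens and 6.54 ± 0.658 FPKM in mCherry spleens, log2 change -0.69 ± 0.12, adjusted p = 0.0127). Another was Nr1h3, which encodes the sterol-sensing receptor LXR alpha, an activator of export genes; it had 5.44, 2.07, 3.33 and 2.65 FPKM in hM3Dq spleens, against 7.19, 8.55, 10.01 and 6.499 FPKM in mCherry spleens. The call of Nr1h3 ended without hM3Dq replicates 7 and 8 and mCherry replicates 1, 2, 3 and 4 (adjusted p up to 0.087). The higher genes were the export genes Abca1 and Abcg1. Abca1, the pump that loads cholesterol onto lipoproteins, had 16.3, 32.4, 20.3 and 25.2 FPKM in hM3Dq spleens, against 9.33, 10.1, 10.6 and 12.8 FPKM in mCherry spleens. The call of Abca1 ended without hM3Dq replicate 8 (adjusted p up to 0.0509). Abcg1, named after its values were seen, averaged 17.2 FPKM in hM3Dq and 13.8 FPKM in mCherry spleens. The call of Abcg1 ended without hM3Dq replicates 7 and 8 and mCherry replicates 1, 3 and 4 (adjusted p up to 0.0757). Of 21 genes of fatty acid oxidation and lipolysis 2 rose and 3 fell, and 1 to 3 rose and 1 to 3 fell with 1 library left out. Pnpla2, the lipase that starts the breakdown of stored fat, averaged 35.1 ± 3.75 FPKM in hM3Dq spleens and 19.02 ± 1.11 FPKM in mCherry spleens (log2 change 0.86 ± 0.08, adjusted p = 0.00241). Cpt1a, which admits fatty acids to mitochondria, had 14.4, 15.7, 14.3 and 15.1 FPKM in hM3Dq spleens, against 19.3, 31.3, 32.7 and 28.01 FPKM in mCherry spleens (log2 change -0.89 ± 0.16, adjusted p = 0.0158). The hM3Dq values of Cpt1a were nearly equal while the mCherry values spread.

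Clock repressors and cAMP-responsive genes rose in part. Of 19 clock genes 5 rose and 0 fell (median 0.27), and 2 to 6 rose with 1 library left out. Per1, a core clock repressor that glucocorticoids and cAMP both induce, had 12.9, 38.5, 16.98 and 26.6 FPKM in hM3Dq spleens, against 6.52, 7.005, 6.43 and 6.93 FPKM in mCherry spleens (log2 change 1.66 ± 0.28, adjusted p = 0.0131). Nr1d2, a second repressor of the clock, averaged 10.4 ± 1.39 FPKM in hM3Dq spleens and 6.88 ± 0.578 FPKM in mCherry spleens (log2 change 0.57 ± 0.09, adjusted p = 0.0127). Of 21 genes of cAMP signalling, the pathway of beta adrenergic receptors, 4 rose and 1 fell, and 2 to 5 rose and 0 to 2 fell with 1 library left out. Sik1, a kinase induced by cAMP that restrains CREB coactivators, had 16.4, 39.5, 20.9 and 25.6 FPKM in hM3Dq spleens, against 4.74, 5.69, 7.27 and 7.69 FPKM in mCherry spleens (log2 change 1.93 ± 0.25, adjusted p = 0.00643). For Per1 and Sik1 the highest of the 8 libraries was hM3Dq replicate 6.

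Genes of cytosolic heat shock chaperones, which refold proteins, had negative log2 changes of which 3 were called. Of 17 measured genes 3 fell and 0 rose (median -0.23), and 1 to 6 fell with 1 library left out. None of the 17 had a positive log2 change, and in 8 all hM3Dq libraries lay below all mCherry libraries, as in 1524 of all 17076 genes tested. Signs were mostly on 1 side in other lists too. The change was positive in 33 of 34 cytosolic ribosomal protein genes and 13 of 13 mitochondrially encoded genes. It was positive in 2 of 29 DNA replication and mitosis genes and 1 of 19 erythroid genes. Hsph1 averaged 4.12 ± 0.6196 FPKM in hM3Dq spleens and 7.35 ± 0.836 FPKM in mCherry spleens (log2 change -0.84 ± 0.13, adjusted p = 0.0107). Of 23 genes of the unfolded protein response 1 rose and 1 fell (median -0.10), a share near the 8.14% called over all genes tested. With 1 library left out 1 rose and 1 to 2 fell. Herpud1 rose (48.4 ± 3.197 FPKM in hM3Dq spleens and 34.2 ± 1.92 FPKM in mCherry spleens, log2 change 0.48 ± 0.06, adjusted p = 0.00532) and Calr fell (108 ± 3.52 FPKM in hM3Dq spleens and 146 ± 9.23 FPKM in mCherry spleens, log2 change -0.44 ± 0.07, adjusted p = 0.0117). Of 19 genes of MHC class II presentation 3 fell and 1 rose (0 to 1 rose and 0 to 5 fell with 1 library left out), and the class II genes H2-Aa and H2-Eb1 were not called (adjusted p = 0.445 and 0.307). None of 19 erythroid genes was called, 0 reached an unadjusted p below 0.05, and voom called 0; their median was -0.59, and 0.20 without hM3Dq replicate 6.

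The spleen and bone marrow responses were compared directly in a fit of all 16 libraries, which tested for each gene whether the change in spleen differed from the change in marrow. Of 17987 genes 18 were called (0.1001%), 11 with a higher and 7 with a lower change in spleen, and the count was 3 to 36 with 1 of the 16 libraries left out, the lowest without spleen hM3Dq replicates 6 or 7 or spleen mCherry replicates 1 or 4. Ppp1r21, Cxcr4 and Bbc3 kept their call in all 16 of these fits, and the other genes named here lost theirs in several of them. A further fit took the replicate number as a block, which treats spleen and marrow libraries of 1 number as related. It called 9 genes, and of the 18 it kept 5, Ppp1r21, Cxcr4, Bbc3, Ccnd3 and Ston1. Hs3st1, Samsn1, Ptp4a1, Tank, Rfx1 and Pde2a, given below from the fit without the block, lost their call with it (limma adjusted p of 0.113 to 0.175). Bbc3 had 19.3 ± 2.32 FPKM in hM3Dq spleens and 6.39 ± 1.02 FPKM in mCherry spleens, against 3.23 ± 0.629 FPKM in hM3Dq marrow and 3.32 ± 0.208 FPKM in mCherry marrow (SD, n = 4 each), a difference of the log2 changes, spleen minus marrow, of 1.68 ± 0.21, adjusted p = 0.00425. Cxcr4 had 179 ± 20.3 FPKM in hM3Dq spleens and 60.7 ± 7.56 FPKM in mCherry spleens, against 246 ± 11.4 FPKM in hM3Dq marrow and 184 ± 21.96 FPKM in mCherry marrow, a difference of 1.18 ± 0.13, adjusted p = 0.00237. Both genes were separate by group in spleen, and in marrow the Bbc3 groups had nearly the same mean. Ppp1r21 had 32.2 ± 5.02 FPKM in hM3Dq spleens and 11.5 ± 0.8397 FPKM in mCherry spleens, against 14.1 ± 0.969 FPKM in hM3Dq marrow and 10.9 ± 0.668 FPKM in mCherry marrow, a difference of 1.14 ± 0.12, adjusted p = 0.00142. Hs3st1, an enzyme that modifies heparan sulfate, had 11.1 ± 3.02 FPKM in hM3Dq spleens and 3.69 ± 0.219 FPKM in mCherry spleens, against 1.37 ± 0.141 FPKM in hM3Dq marrow and 1.195 ± 0.287 FPKM in mCherry marrow, a difference of 1.35 ± 0.22, adjusted p = 0.0312.

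In the other direction Samsn1, an adaptor that restrains B cell activation, had 10.5 ± 1.03 FPKM in hM3Dq spleens and 10.7 ± 1.05 FPKM in mCherry spleens, against 34.1 ± 8.09 FPKM in hM3Dq marrow and 14.5 ± 1.36 FPKM in mCherry marrow, a difference of -1.20 ± 0.18, adjusted p = 0.0312. Ptp4a1, a phosphatase, had 4.797 ± 0.355 FPKM in hM3Dq spleens and 3.89 ± 0.263 FPKM in mCherry spleens, against 12.8 ± 2.44 FPKM in hM3Dq marrow and 4.72 ± 0.347 FPKM in mCherry marrow, a difference of -1.07 ± 0.16, adjusted p = 0.0312. The groups were apart in marrow for both genes, while in spleen neither gene was called. Tank, a regulator of TRAF signalling, and Rfx1, a transcription factor, were called at -0.68 ± 0.11, adjusted p = 0.0312 and -0.60 ± 0.10, adjusted p = 0.0312, and Ccnd3 at 0.74 ± 0.12, adjusted p = 0.0312. Pde2a, a phosphodiesterase called at 1.03 ± 0.17, adjusted p = 0.0312, shares 91129 bases with the predicted gene Gm45837, so its reads are uncertain. Of 1283 genes called in spleen and measured in marrow, 288 were also called there. The share of all marrow genes called is not given here, so whether 288 exceeds that share cannot be told. A gene called in 1 tissue alone is not thereby shown to differ between them.

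**Figure D5:**
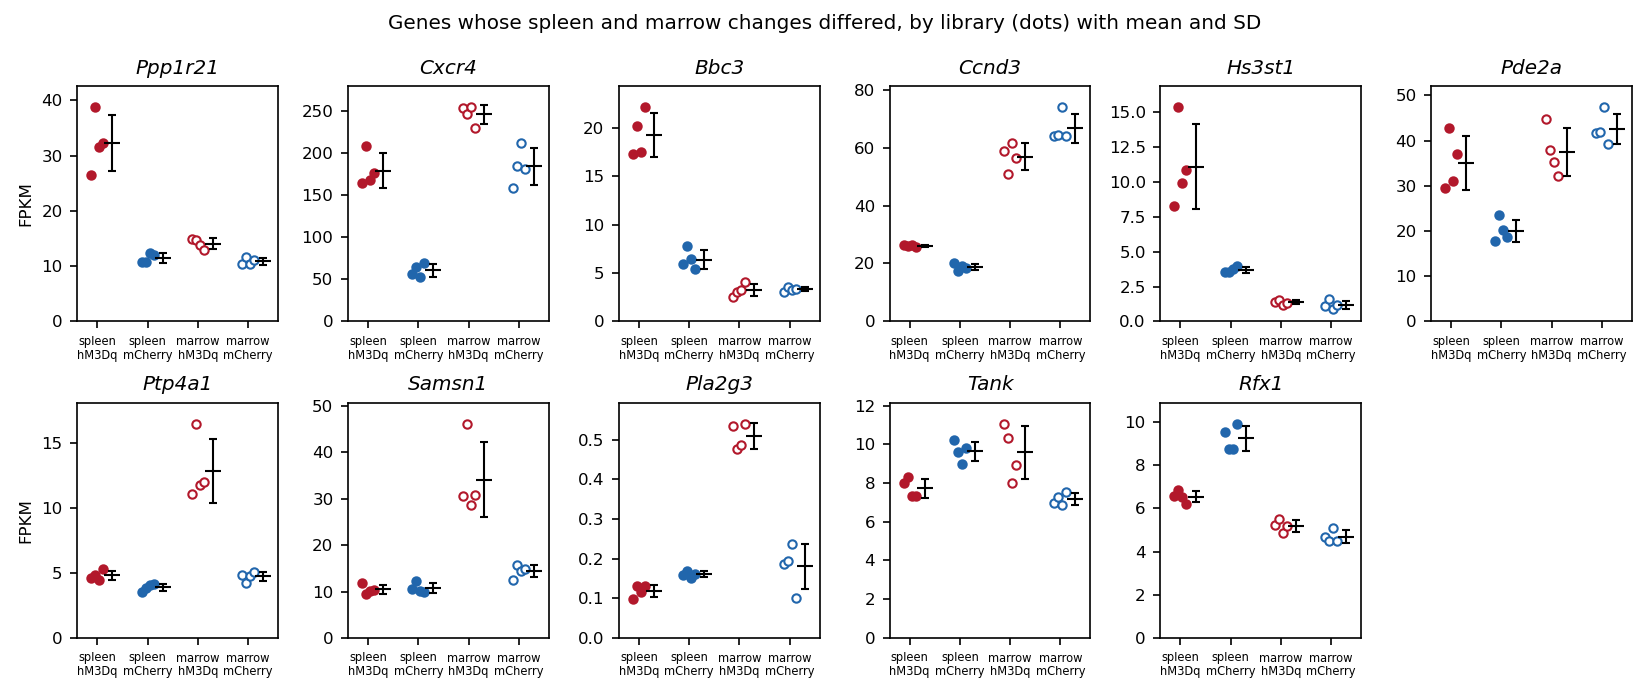
Deposited FPKM (vertical axes, from 0) by library for 11 genes called for a difference between the spleen and marrow changes, with filled dots for spleen, open dots for marrow, red for hM3Dq, blue for mCherry, and a bar for mean and SD. Bbc3 and Hs3st1 separate the groups in spleen and not in marrow, and Samsn1 does so in marrow and not in spleen.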

How the data were processed

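The spleen and bone marrow libraries were sequenced from poly(A) RNA of CD45+ cells. Per the submitters' processing notes, CASAVA 1.9, STAR 2.6.1a, featureCounts and edgeR 3.28.1 were used with GRCm38; neither the annotation release nor the strand setting is given in the sources used here. The files deposited by the authors hold FPKM for 49585 genes per library, per the file headers. No counts were used: FPKM were tested on the log2 scale. Whole reads were recovered for 87.4% of genes above 0 (within 0.01 of a whole number, using GENCODE exon lengths), and served for depth, the TMM factors, the voom and median-of-ratios alternatives, and the filter of at least 10 fragments in at least 4 libraries. FPKM were divided by TMM factors computed over the spleen libraries (30% of log ratios and 5% of levels trimmed from each end), 0.1 was added, and log2 values were fitted with limma 3.58.1 (R 4.3.3, trended prior) with Benjamini-Hochberg adjustment over 17076 genes at 0.05. The tissue difference was the interaction term in a fit of all 16 libraries over 17987 genes. Other steps used pandas 2.3.3 and numpy 2.4.6 under Python 3.11.15, with matplotlib 3.10.9 for figures.

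Genes were named by a rule: the 10 genes of smallest p in each direction among called, non-overlapping protein-coding genes, the 8 of largest change in each direction, up to 4 called and 3 not called members per gene list, 6 genes per direction of the tissue difference, and a panel of receptors and markers. Genes named otherwise are marked as such. The members, the 61 gene lists and the rule were chosen with earlier results of these data known. Gene symbols matched 99.5% of IDs. In data simulated for the spleen comparison (16863 genes), the fit called 60.8% of simulated 1.5-fold changes and 88.8% of simulated 2-fold changes, with 14 false calls. For the tissue difference (17773 genes) the shares were 22.4% and 72.4%, with 6 false calls. Every simulated gene had the same dispersion (0.00647), and no shift was shared by the genes of a library. Real libraries can vary in both ways, so these shares and false calls may not hold for them. No pair of libraries within a group agreed within counting noise. Depth and replicate number limit the precision, since 1 fragment in a 2 kb transcript was worth 0.0295 to 0.0441 FPKM. A few genes are not reported here.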

Additional observations from a re-analysis of the deposited data

Results flagged for a closer look

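Among the genes named above, 1 library stood far from the other 3 of its group for 9 genes; chance alone gives such a value in about 1 in 20 groups, and 278 groups of values were looked at. Egr3 in hM3Dq replicate 5 was at 8.58 FPKM where the other hM3Dq spleens were at 5.85 to 6.26 FPKM, and Il18rap in hM3Dq replicate 7 was at 14.7 FPKM where the others were at 17.9 to 18.5 FPKM. In mCherry replicate 1, Cxcl10 was at 4.23 FPKM (others 0.979 to 1.34), H2-Aa at 559.8 FPKM (others 609 to 616) and Klf2 at 131 FPKM (others 155 to 157). Rasgrp1 in hM3Dq replicate 5 was at 28.1 FPKM (others 21.8 to 22.6). Rela in mCherry replicate 2 was at 39.7 FPKM (others 36.8 to 37.2), and Crispld2 and Kcnj10 in mCherry replicate 3 were at 0.753 FPKM (others 1.48 to 1.54) and 10.1 FPKM (others 6.05 to 6.56).

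The change in spleen differed from the change in marrow, by limma's interaction term, for 11 of the genes named. The difference of log2 changes, spleen minus marrow, was 1.68 for Bbc3, 1.18 for Cxcr4, 1.14 for Ppp1r21, 1.79 for Ston1, 1.35 for Hs3st1, 1.03 for Pde2a and 0.74 for Ccnd3. It was -1.20 for Samsn1, -1.07 for Ptp4a1, -0.68 for Tank and -0.60 for Rfx1. With the replicate number as a block, only Bbc3, Cxcr4, Ppp1r21, Ston1 and Ccnd3 of these genes were called.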

How the results depend on the processing

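The number of genes called in spleen (1390, 636 higher and 754 lower) was 872 (386 and 486) with the haemoglobin share as a covariate, 597 (281 and 316) with no filter on low values, and 196 (108 and 88) at an adjusted p below 0.01, and 382 to 1756 (186 to 851 and 196 to 905) with 1 library left out. It was 1219 to 1743 under the other alternatives: a filter of 1 FPKM, median-of-ratios factors, no composition scaling, no trend, robust fitting, voom, pseudocounts of 0.5 and 1, the 16-library fit, and, chosen after seeing the data, TMM factors from all 16 libraries. Of 112 called genes named, 82 kept their call without each library in turn, and 14 lost it in the 16-library fit, 14 with no filter, 7 with the haemoglobin covariate, 2 with no trend and 0 under 8 others. No paired analysis was possible because hM3Dq (5 to 8) and mCherry (1 to 4) libraries share no replicate numbers within spleen. For the tissue difference, the 18 genes called became 11 without composition scaling, 81 with a pseudocount of 1, 9 with the replicate block and 3 to 36 with 1 library left out. The deviations of spleen and marrow libraries of 1 number correlated at 0.0508 to 0.451, above 0.1 in 4 of 8 pairs, and 7 of 8 correlated best with their own number. The labels do not say that such libraries share a mouse, so the main fit did not pair them. These correlations do not exclude a link by number. Of the 18 genes Ppp1r21, Cxcr4, Bbc3, Ccnd3 and Ston1 were also called with the block, and the others named had adjusted p of 0.113 to 0.175 there. Signs turned, always without a call, for Mki67 (0.0238 with the haemoglobin covariate), for Rela and Siglech (-0.0031 and -0.0085 with all-16 factors and with all 16 libraries) and, with 1 library left out, for Ighd (-0.1166 to 0.0243), Ighg2c (-0.7794 to 0.156), Mki67 (-0.7437 to 0.0421), Rela (-0.0096 to 0.0448), Samsn1 (-0.1203 to 0.02) and Siglech (-0.0677 to 0.1335). The causes were not tested. At this depth genes of few fragments could not show small changes.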

Other observations

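Calls in further gene groups are given beside the 8.14% of all genes tested that were called, and these counts changed when 1 library was left out. For the amino acid response, which answers a shortage of amino acids, 0 rose and 1 fell of 23 genes measured (0 to 3 fell with 1 library left out), for ribosome biogenesis and MYC targets 1 rose and 1 fell of 29 (0 to 1 rose and 0 to 2 fell), and for autophagy and lysosomes 0 rose and 1 fell of 23 (0 to 1 fell). For MHC class I presentation 1 rose and 2 fell of 21 (0 to 1 rose and 0 to 4 fell with 1 library left out), with Tapbp, the peptide-loading chaperone tapasin, at 77.99 ± 4.61 FPKM in hM3Dq spleens and 96.5 ± 3.78 FPKM in mCherry spleens (adjusted p = 0.0258). The call of Tapbp ended without hM3Dq replicates 6, 7 and 8 and mCherry replicates 1, 2, 3 and 4 (adjusted p up to 0.0719). For eosinophils, basophils and mast cells 0 rose and 0 fell of 16 (2 higher and 4 lower at an unadjusted p below 0.05, and 2 lower by voom), for conventional dendritic cells 1 rose and 1 fell of 16 (1 rose and 0 to 4 fell with 1 library left out), and for megakaryocytes and platelets 1 rose and 0 fell of 10 (0 to 1 rose). For nonclassical monocytes, which patrol vessel walls, 0 rose and 2 fell of 12 (0 to 1 rose and 0 to 5 fell with 1 library left out, and a median log2 change of -0.37 in the full fit), among them Itgal, the integrin subunit CD11a that most leukocytes carry, at 54.2 ± 4.71 FPKM in hM3Dq spleens and 72.5 ± 5.06 FPKM in mCherry spleens (adjusted p = 0.0166). The call of Itgal ended without hM3Dq replicate 8 (adjusted p up to 0.0518). For T cell receptor signalling 2 rose and 2 fell of 20 (1 to 3 rose and 1 to 3 fell with 1 library left out). Rasgrp1, which links that receptor to RAS, averaged 23.6 ± 2.98 FPKM in hM3Dq spleens and 31.8 ± 0.648 FPKM in mCherry spleens (adjusted p = 0.0229). The call of Rasgrp1 ended without hM3Dq replicates 7 and 8 and mCherry replicates 1, 2, 3 and 4 (adjusted p up to 0.0716). For the GIMAP GTPases, which support lymphocyte survival, 0 rose and 2 fell of 8, and 0 to 2 fell with 1 library left out, 0 without hM3Dq replicates 7 or 8 or mCherry replicates 1, 2, 3 or 4. With no filter on low values 0 were called.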
